A study of Mus musculus with 10 samples.

Results

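The transcripts of 39 genes that copy DNA or supply its building blocks were measured in mouse granulocyte-monocyte progenitors (GMPs), bone marrow cells that divide and give rise to neutrophils and monocytes. The genes were chosen by function and are 39 of 51717 genes to which the deposited transcripts could be summed. They fall into 7 roles: origin licensing (10 genes), activation of the replicative helicase (6), primase and polymerases (9), the sliding clamp and its loader (6), maturation of Okazaki fragments (2), binding of single-stranded DNA (2) and dNTP supply (4). The comparison asked whether the level of these transcripts differed soon after loss of MPC2, a subunit of the carrier that brings pyruvate into mitochondria.

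The 5 WT samples carried ROSA26 CreER+/- alone, and 5 recent KO samples carried Mpc2fl/fl; ROSA26 CreER+/-, so that Cre was present in both groups. The labels give male C57Bl6/N mice, and both groups received tamoxifen chow for 2 wk. The cells were CD45.2+ donor GMPs sorted from irradiated chimeras after enrichment of CD27+ marrow cells. Each WT sample was taken from a single mouse, whereas marrow of 2 mice was pooled for each of the recent KO samples, so the groups held 5 and 10 mice. ROSA26 CreER came with the donor marrow and is active in most cell types, so deletion was not limited to GMPs among the donor's blood cells. The paper describes mixed chimeras, in which WT competitor marrow was given with the donor marrow, and full chimeras without it. Which kind served for the RNA-seq is not stated outright. The paper reports that full chimeras of the KO genotype did not live to the end of the tamoxifen course. Recent KO cells were sorted at the end of that course, so mixed chimeras, with WT competitor cells in the marrow, are their likelier source. Whether the host's own cells remained in the marrow was not tested.

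In each division a cell loads the MCM2-7 helicase onto origins with the help of ORC, CDC6 and CDT1. CDC45 and the GINS complex then switch the helicase on, and primase and the polymerases copy the strands behind it while the PCNA ring holds the polymerases on DNA. Ribonucleotide reductase, thymidylate synthase and thymidine kinase supply the dNTPs, and many of these genes are transcribed at the boundary of G1 and S phase under E2F transcription factors.

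Libraries held 14033776 to 19745405 estimated reads. Mpc2 itself was at 60.9 to 117 normalized CPM (read counts scaled to a common library size) in WT samples and at 17.1 to 43.9 in recent KO samples, with a log2 fold change of -1.46 (SE 0.24, adjusted p = 0.0156). Adjusted p-values are those of the quasi-likelihood test of edgeR after Benjamini-Hochberg correction over all genes tested. The summed CPM of 12 markers of GMPs was 87829 to 123590 in WT and 51969 to 89853 in recent KO samples. Mpo gave most of it, at means of 60919 and 42346 CPM, while Cebpa stood at 13.9 CPM in WT. Of the 12, 9 had a log2 fold change below 0 and 3 above. An unadjusted p under 0.05 (edgeR) was found for 7, all below 0, beside 10.2% of all genes tested. Fcgr3 was lower in every recent KO sample than in any WT sample (-0.65, adjusted p = 0.107, edgeR), where groups did not overlap in 2.42% of all genes tested. Of 8 lymphoid markers none passed the filter on low counts, and their summed CPM was at most 2.63. The summed CPM of 10 erythroid markers was 45.9 to 85.9 in WT and 64.9 to 250.1 in recent KO samples, that of 10 markers of mature neutrophils was 123 to 435 and 118 to 753, that of 8 macrophage markers 19.99 to 40.9 and 43.1 to 81.9, and that of 7 monocyte markers 2702 to 4060 and 1032 to 3777. For 5 megakaryocyte markers the sum was 8.69 to 17.1 and 21.4 to 29.7, and for 7 stem cell markers 38.9 to 46.6 and 52.0 to 77.1. Of 9 neutrophil markers tested 7 had a log2 fold change above 0 and 2 below, with a median of 1.40. S100a8, the largest part of the neutrophil sum, was at -0.08. Of the 8 macrophage markers 7 were above 0 and 1 below, and 3 were called, C1qa, C1qb and C1qc (adjusted p of 0.0406, 0.0160 and 0.0383, edgeR). No other list of markers held a call. All 7 monocyte markers were below 0, while all tested erythroid (8), megakaryocyte (3) and stem cell (6) markers were above 0. For 4 macrophage markers, Pf4 (megakaryocyte) and Flt3 (stem cell), every recent KO sample was above every WT sample, beside 2.42% of all genes tested without overlap. The part of these shifts in the values below was not tested, and in such bulk samples fewer cells of a type and less RNA per cell cannot be told apart.

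Letters that E2F factors are known to bind lay close to the start of many of these genes. RefSeq promoter windows (GRCm38.p6, 250 bases before to 50 after the start) were at hand for 32 of the 39 genes, and 14 of them (43.8%) held TTTCCCGC, TTTGGCGC, TTTCGCGC or TTTGCCGC on either strand, beside 704 of 27025 genes (2.60%) with a window and 1 of 18 windows of a list of mitosis genes (5.56%). CCAAT, which NF-Y is known to bind, stood in 20 of the 32 windows (62.5%), beside 41.1% of all genes and 15 of the 18 mitosis windows (83.3%). TTTGAA, a letter run known from promoters of genes of late cell cycle phases, stood in 5 of 32 (15.6%), beside 20.2% of all genes and 12 of the 18 mitosis windows (66.7%). Upstream stretches of 80 bases from 3 genes show such letters in capitals, chosen because their genes lead the licensing group by level or by p (Mcm6, Mcm5) or encode the polymerase that starts both strands (Pola1), and because they lie in no annotated exon. Each is written 5′ to 3′ on the strand of its gene.
Mcm6, chr1:128359730-128359809, minus strand: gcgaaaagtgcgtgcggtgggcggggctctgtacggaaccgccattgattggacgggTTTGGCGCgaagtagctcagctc
Mcm5, chr8:75109303-75109382, plus strand: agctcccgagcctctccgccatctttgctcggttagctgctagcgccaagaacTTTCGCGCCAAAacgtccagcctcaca
Pola1, chrX:93632271-93632350, minus strand: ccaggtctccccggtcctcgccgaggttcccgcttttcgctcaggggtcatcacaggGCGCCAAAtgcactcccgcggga
In Mcm5 the capitals are a pair of overlapping matches on opposite strands, and in Pola1 the match lies on the other strand. Further Mcm6 matches, at 110 to 103 and 106 to 99 bases before the start, are cut by the stretch's first base, at 104. What remains of them is in lower case. A match is a description of the letters only.

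None of the 39 genes passed the test for a difference. All 39 passed the filter on low counts, 0 had an adjusted p under 0.05, and the groups overlapped in every one of them, where 0.331% of the 12381 genes tested were called (41 genes) and 2.42% had groups that did not overlap (300 genes). At an unadjusted p under 0.05 the count was also 0 of 39, beside 10.2% of all genes tested, and DESeq2 called 0 of 39, beside 1.09% of the genes to which it gave an adjusted p. The smallest adjusted p of a member was 0.490 by edgeR's quasi-likelihood test and 0.453 by DESeq2. The log2 fold change (recent KO against WT) was above 0 for 24 genes and below 0 for 15, with a median of 0.02 beside -0.0018 over all genes tested. Their median distance from 0 was 0.05, and it was 0.10 over all genes tested.

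The intervals of these genes were narrow. All 39 intervals (95%, from the edgeR fit) held 0, all 39 lay within a 1.5-fold change in either direction, and 34 lay within a 1.2-fold change. Of all genes tested, 68.9% had an interval within 1.5-fold and 26.98% within 1.2-fold. The replication genes were better covered by reads than most, with a median of 100.1 CPM beside 14.3 over all genes tested, and the lowest value behind any of them was 135 estimated reads, for Orc1 in one sample. The widest bounds were 1.30-fold higher for Pole and 0.801-fold for Rrm2.

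**Figure D1:**
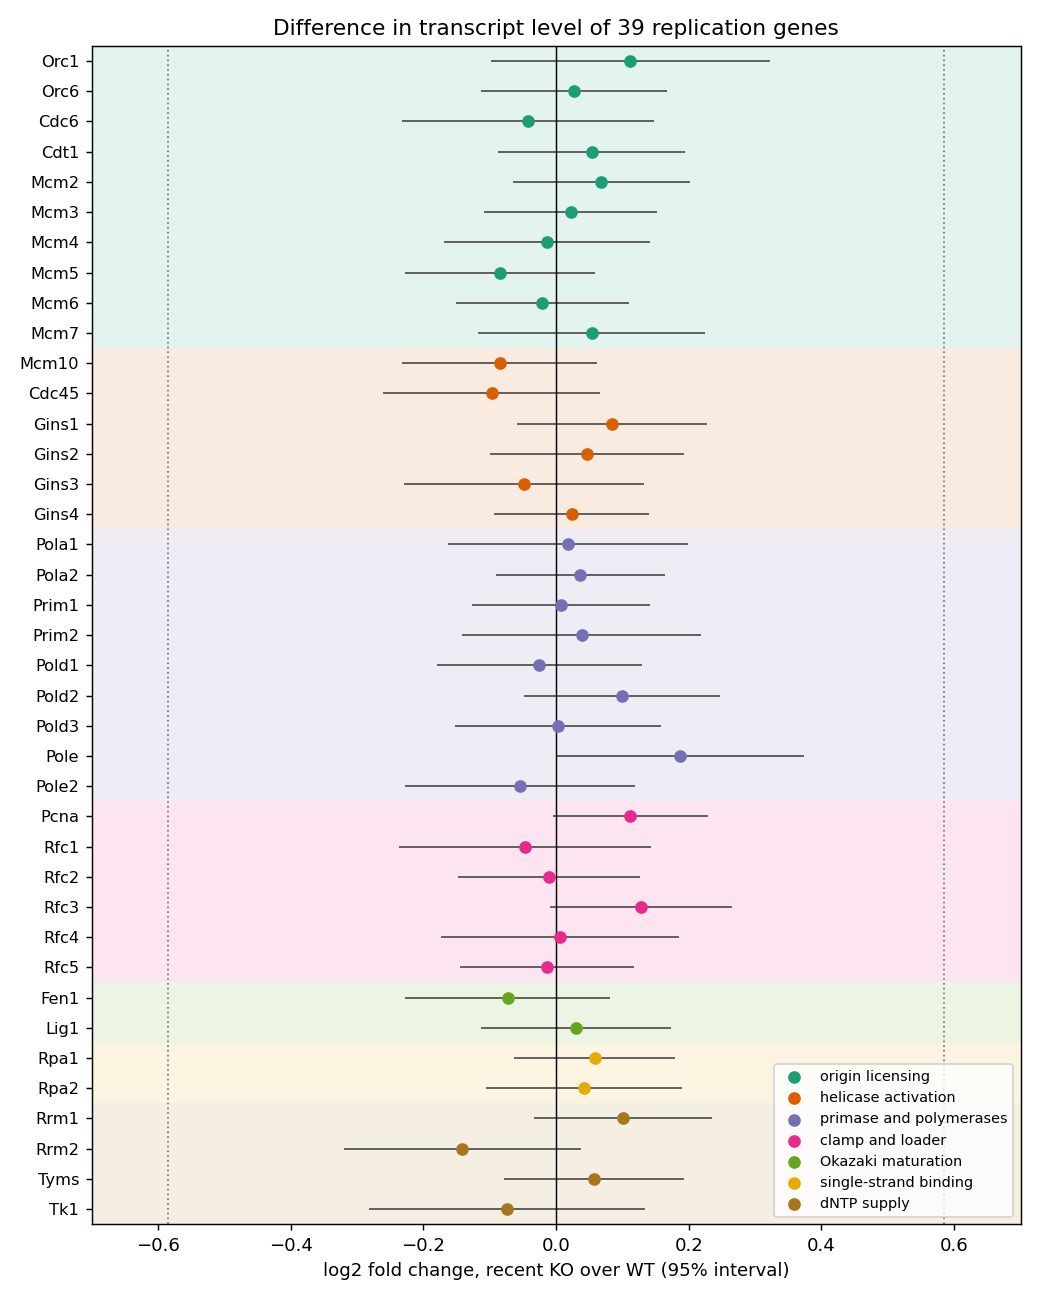
Log2 fold change, recent KO against WT (x axis), for each of the 39 genes (y axis), as a point with its 95% interval, coloured by role; n = 5 samples a group. The solid line marks 0 and the dotted lines a 1.5-fold change. Every interval crosses 0 and ends inside the dotted lines.

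Across the genes, levels per length spanned a wide range. TPM (transcript abundance scaled to transcript length and a fixed total) ran in WT samples from 3.34 ± 0.241 (SD, n = 5) for Orc1, the large subunit of the origin recognition complex, to 275 ± 18.2 for Tyms, thymidylate synthase. Pcna stood at 259 ± 19.7 TPM. Gene totals of TPM count every annotated transcript model, and in 6 genes (Mcm10, Gins2, Rfc1, Rfc2, Rpa1 and Tyms) the leading model does not code for protein. With protein-coding models alone, Pcna led with 256 TPM, followed by Rrm2 with 128 and Tk1 with 124, and Tyms fell to 53.3 TPM. For the other 33 genes the leading model was a coding one. The leading model's share did not separate the groups in any of the 39 genes.

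**Figure D2:**
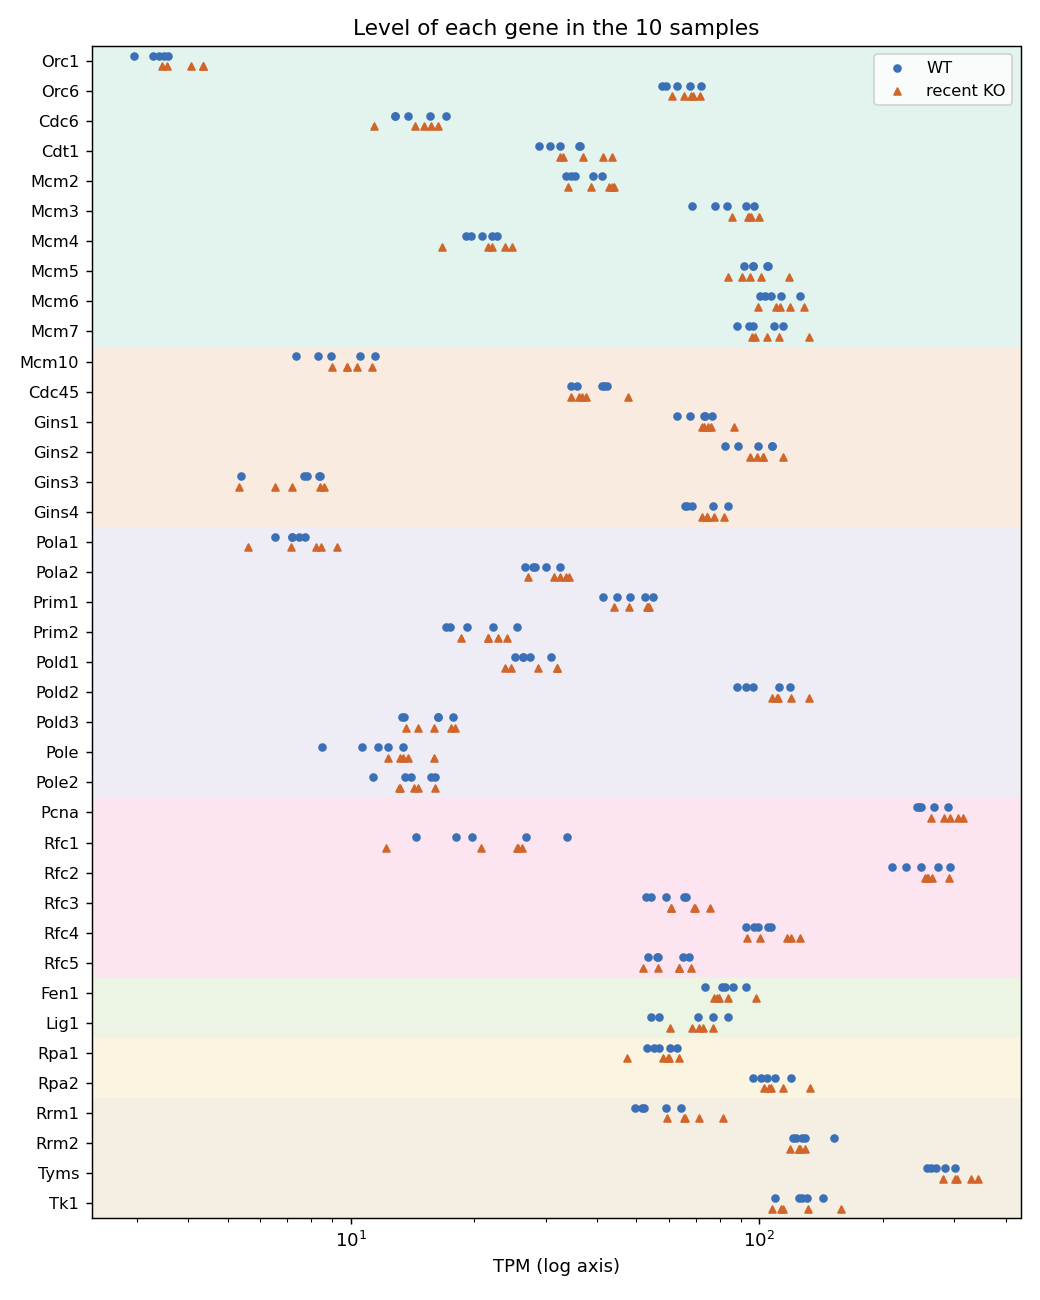
TPM of each gene on a log axis (x axis) in the 5 WT samples (circles) and the 5 recent KO samples (triangles), by role (shading, in the order licensing, helicase activation, primase and polymerases, clamp and loader, Okazaki maturation, single-strand binding, dNTP supply). Levels differ far more between genes than between the groups, whose points overlap in every gene.

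The licensing genes load the helicase. Of the 10, 6 had a log2 fold change above 0 and 4 below, from -0.08 (Mcm5) to 0.11 (Orc1), with a median of 0.02 and no call. Mcm6, a helicase subunit and the group's most abundant gene per length, was at 406, 357, 392, 371 and 372 CPM in WT replicates 1 to 5 and at 357, 412, 384, 362 and 356 CPM in recent KO replicates 1 to 5. The groups covered much the same range, and the log2 fold change was -0.02 (SE 0.06, adjusted p = 0.947, edgeR). Mcm5, another subunit and the gene with the smallest unadjusted p in the group, was at 306, 303, 321, 307 and 312 CPM in WT and at 276, 341, 296, 280 and 268 CPM in recent KO samples. Of the recent KO samples 4 lay below every WT sample and replicate 2 above them all, and the log2 fold change was -0.08 (SE 0.07, adjusted p = 0.739, edgeR). Cdc6 and Cdt1, the loaders, had log2 fold changes of -0.04 and 0.05, and the ORC subunits Orc1 and Orc6 0.11 and 0.03.

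The MCM2-7 subunits work as a ring of equal parts, yet their transcripts were not at equal levels. In WT samples Mcm6 stood at 110 ± 10.02 TPM, Mcm7 at 100.3 ± 10.8, Mcm5 at 98.8 ± 5.66, Mcm3 at 83.9 ± 11.4, Mcm2 at 36.8 ± 3.26 and Mcm4 at 20.96 ± 1.55 (SD, n = 5), a span of 5.24-fold. The first 4 overlapped with their neighbours in this order, whereas Mcm3 did not overlap with Mcm2, nor Mcm2 with Mcm4. With coding models alone Mcm3 was at 55.7 TPM and no longer overlapped with the gene above it, and the order of Mcm7 and Mcm5 was exchanged within their spread. The recent KO means of the 6 genes were 114, 108, 97.8, 93.8, 40.6 and 21.9 TPM in the same order. Mcm7 overlaps Cops6 and Ap4m1 on the opposite strand, at its ends only. The library kit is not stated to mark strand, so reads inside the shared stretches cannot be told apart by strand, and their part in the gene level was not tested. The same holds for Orc6 (with Vps35), Cdc45 (Ufd1), Rfc2 (Lat2), Rfc4 (Eif4a2), Rfc5 (Wsb2) and Fen1 (Tmem258), and Pole2 overlaps Gm49384 on its own strand.

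Activation of the helicase needs MCM10, CDC45 and the GINS subunits. Of these 6 genes 3 were above 0 and 3 below, from -0.10 (Cdc45) to 0.08 (Gins1), with no call. Gins2, the highest of them in gene TPM, was at 111, 103, 93.5, 91.8 and 107 CPM in WT and at 114, 97.5, 103, 107 and 103 CPM in recent KO samples. The ranges overlapped almost wholly, with a log2 fold change of 0.05 (SE 0.07, adjusted p = 0.875, edgeR). Cdc45 was at 93.5, 85.8, 87.6, 103 and 93.7 CPM in WT and at 84.0, 103, 80.5, 83.2 and 83.0 CPM in recent KO samples. Recent KO replicate 2 stood well above the other 4, which were under every WT sample, and the log2 fold change was -0.10 (SE 0.08, adjusted p = 0.739, edgeR). Ufd1, which overlaps only an end of Cdc45 on the opposite strand, had a mean of 44.0 TPM. Among the GINS genes Gins3 was the lowest in TPM, 7.54 ± 1.246 in WT samples, against 72.2 ± 7.78 for Gins4 and 70.8 ± 5.50 for Gins1, which did not differ beyond their spread. Gins2 stood at 97.1 ± 11.3 TPM, but 79.7% to 82.9% of this in WT samples lay in 1 retained-intron model, and its coding models alone gave 16.5 TPM.

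Primase and the polymerases start and extend the new strands. Of these 9 genes 7 were above 0 and 2 below, with no call and a median log2 fold change of 0.02. Pold2, a subunit of polymerase delta and the group's most abundant gene per length, was at 194, 170.0, 172, 167 and 184 CPM in WT and at 199, 215, 185, 174 and 178 CPM in recent KO samples. Only recent KO replicates 1 and 2 exceeded every WT sample, and the log2 fold change was 0.10 (SE 0.07, adjusted p = 0.677, edgeR). Pole, the catalytic subunit of polymerase epsilon on the leading strand, was at 18.7, 20.2, 19.8, 15.5 and 19.97 CPM in WT and at 22.4, 21.8, 22.2, 19.2 and 21.7 CPM in recent KO samples. Of the recent KO samples 4 lay above every WT sample and replicate 4 lay among them. This was the largest difference of the 39, a log2 fold change of 0.19 (SE 0.09, interval -0.0008 to 0.37), with an unadjusted p of 0.0508 and an adjusted p of 0.490 by edgeR. Pole2, a further subunit of the same enzyme, had a log2 fold change of -0.05. The other members were Pola1 (0.02), Pola2 (0.04), Prim1 (0.01), Prim2 (0.04), Pold1 (-0.03) and Pold3 (0.0030), as log2 fold changes.

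The clamp PCNA encircles DNA and the RFC complex loads it. Of these 6 genes 3 were above 0 and 3 below, with no call. Pcna was at 391, 396, 415, 416 and 437.2 CPM in WT and at 442, 457, 460.1, 437.4 and 424 CPM in recent KO samples. All but recent KO replicate 5 lay above the highest WT sample, WT replicate 5, and the log2 fold change was 0.11 (SE 0.05, interval -0.0043 to 0.23, adjusted p = 0.504, edgeR). The loader genes had log2 fold changes of -0.05 (Rfc1), -0.01 (Rfc2), 0.13 (Rfc3), 0.01 (Rfc4) and -0.01 (Rfc5), and Rfc3 had an unadjusted p of 0.0664 by edgeR. In WT samples Rfc2 led the loader with 251 ± 32.8 TPM, of which 61.7% to 69.8% lay in a retained-intron model. With coding models alone Rfc4 led with 99.3 TPM, Rfc3 and Rfc5 did not differ beyond their spread at 56.5 and 56.0 TPM, Rfc2 stood at 31.8 and Rfc1 at 8.43 TPM.

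An exact two-sided permutation test over the samples, computed for each of the 39 genes without adjustment, gave p = 0.0159 for Pcna and p = 0.0317 for Pole, against a smallest possible p of 0.00794 with 5 samples a group. These were the 2 members of 39 under 0.05, beside 9.6% of all genes tested.

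Fen1 and Lig1 trim and seal Okazaki fragments. Fen1, the flap endonuclease, was at 218, 187, 218, 234 and 198 CPM in WT and at 203, 226, 191, 197 and 188 CPM in recent KO samples. The groups overlapped over most of their range, and the log2 fold change was -0.07 (SE 0.07, adjusted p = 0.809, edgeR), with 0.03 for Lig1, the ligase. Tmem258, which overlaps only an end of Fen1 on the opposite strand, had a mean of 552 TPM. The sign of Fen1 was not stable, since its log2 fold change was 0.0033 on the log2(TPM + 1) scale. Rpa1 and Rpa2 coat single-stranded DNA at the fork. Rpa2 was at 205, 191, 206, 186 and 195 CPM in WT and at 208, 234, 199, 187 and 185 CPM in recent KO samples. Rpa1 was at 113, 108, 106, 115 and 105 CPM in WT and at 105, 120.4, 119, 113 and 112 CPM in recent KO samples. Recent KO replicate 2 was the highest sample for both, with log2 fold changes of 0.04 for Rpa2 and 0.06 for Rpa1 (edgeR adjusted p of 0.889 and 0.808), the latter -0.06 with an offset for transcript length.

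The dNTP supply genes make and salvage the precursors of DNA. Of the 4, 2 were above 0 and 2 below, with no call. Rrm1, the large subunit of ribonucleotide reductase, was at 207, 191, 211, 213 and 193 CPM in WT and at 199.7, 241, 223, 219 and 206 CPM in recent KO samples. Recent KO replicates 2, 3 and 4 lay above every WT sample, and the log2 fold change was 0.10 (SE 0.06, adjusted p = 0.631, edgeR). Per length the difference was larger, 55.3 ± 6.12 TPM in WT and 68.6 ± 8.23 TPM in recent KO samples (SD, n = 5), and an offset for transcript length gave a log2 fold change of 0.25 with an unadjusted p of 0.00657 and an adjusted p of 0.305 by edgeR. The coding model that leads Rrm1 held 65.8% to 79.1% of its TPM in WT and 53.6% to 71.9% in recent KO samples. With coding models alone the log2 fold change was 0.14.

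Rrm2, the small subunit, whose level is known to rise in S phase, was at 290.4, 316, 321, 399 and 281 CPM in WT and at 302, 290.4, 285, 289 and 289 CPM in recent KO samples. WT replicate 4 was the highest, and the recent KO samples lay close together inside the WT range. Their SD was 6.57 CPM, over pools of 2 mice, beside 46.4 CPM in WT, over single mice. The log2 fold change was -0.14 (SE 0.08, adjusted p = 0.605, edgeR), and -0.05 without WT replicate 4. Tyms was at 253, 237, 241, 226 and 257 CPM in WT and at 258, 224, 248, 274 and 259 CPM in recent KO samples, the groups overlapping almost wholly, with a log2 fold change of 0.06 (SE 0.06, adjusted p = 0.834, edgeR).

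Tk1, the salvage kinase for thymidine, was at 195, 182, 202, 174 and 187 CPM in WT and at 207, 215, 151, 161 and 160.0 CPM in recent KO samples. Recent KO replicates 1 and 2 lay above every WT sample and replicates 3, 4 and 5 below every WT sample. The group means, 188 ± 10.7 and 179 ± 29.8 CPM (SD, n = 5), differed by less than the spread among the recent KO samples, with a log2 fold change of -0.07 (SE 0.10, adjusted p = 0.859, edgeR).

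**Figure D3:**
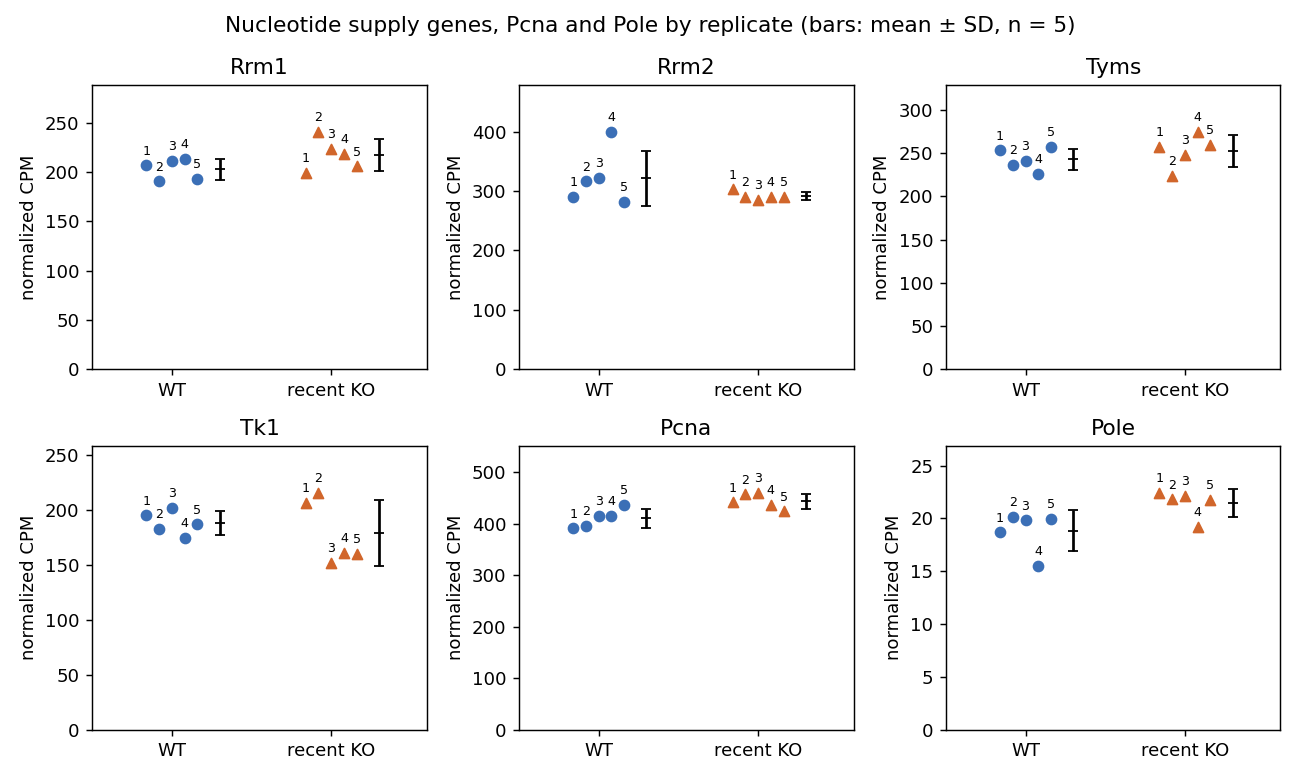
Normalized CPM (y axis, from 0) of Rrm1, Rrm2, Tyms, Tk1, Pcna and Pole in WT samples (circles) and recent KO samples (triangles), numbered by replicate; the bars are the mean ± SD, n = 5. WT replicate 4 is the highest for Rrm2, recent KO replicates 1 and 2 stand above replicates 3 to 5 for Tk1, and the groups overlap in all 6 panels.

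Summed over the 39 genes, the level was 2791 ± 219 TPM in WT and 2981 ± 157 TPM in recent KO samples (SD, n = 5), a ratio of 1.07, with sample ranges of 2571 to 3054 and 2799 to 3229 that overlapped. As normalized CPM the sums were 5475 ± 141 and 5519 ± 251, a ratio of 1.01. The genes drew 0.497% to 0.608% of a sample's estimated reads. Recent KO replicate 2 had the highest sum on both scales, was the highest sample for 14 of the 39 genes and was above the WT mean for 29. WT replicate 2 was the lowest sample for 10 genes, WT replicate 4 for 8 and recent KO replicate 5 for 7. Without recent KO replicate 2 the median log2 fold change of the 39 was -0.0097, with 18 genes above 0, and none was called.

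**Figure D4:**
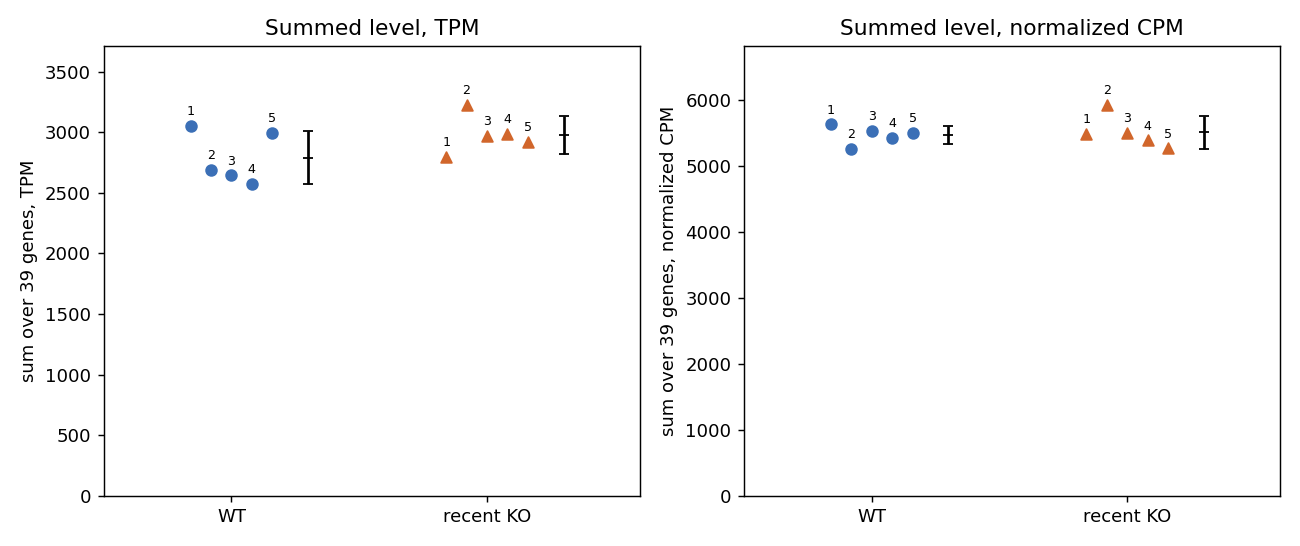
Sum over the 39 genes in each sample (y axes, from 0), as TPM (left) and as normalized CPM (right), for WT (circles) and recent KO (triangles), numbered by replicate, with mean ± SD, n = 5. The groups overlap on both scales, and recent KO replicate 2 is the highest sample on both.

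Other genes of the same pathways showed no call either. Of 129 further genes in 6 lists, all were tested, 0 had an adjusted p under 0.05 and 11 (8.53%) had an unadjusted p under 0.05 by edgeR, beside 10.2% of all genes tested. By DESeq2 the count called was also 0. Among 15 further origin genes and 21 further replisome genes 0 had an unadjusted p under 0.05, the median log2 fold changes being 0.04 and -0.03. The origin genes with the smallest p were Ticrr, which brings factors that fire origins (log2 fold change -0.21), Orc3 (0.08) and Orc4 (0.14), and the replisome genes were the RNase H2 subunits Rnaseh2b (0.13) and Rnaseh2c (-0.10) and the alternative clamp loader gene Chtf8 (-0.38).

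Of 30 further nucleotide genes, 8 (26.7%) had an unadjusted p under 0.05 by edgeR, 7 above 0 and 1 below, beside 10.2% of all genes tested. Impdh1, which catalyses a rate-limiting step of guanine nucleotide synthesis, was at 95.2, 96.3, 101, 105 and 99.7 CPM in WT and at 86.9, 94.8, 80.2, 77.3 and 82.4 CPM in recent KO samples. Every recent KO sample lay below every WT sample, where 2.42% of all genes tested had groups that did not overlap. The log2 fold change of Impdh1 was -0.24 (SE 0.06, unadjusted p = 0.00238, adjusted p = 0.190, edgeR). Without recent KO replicate 2, the recent KO sample nearest to WT for this gene, Impdh1 was called, with a log2 fold change of -0.28 and an adjusted p of 0.0473 by edgeR. Leaving out that sample also raised the count called over all genes above the 41 of the main test. The 7 above 0 were Prps1 (0.16), Dctd (0.21), which supplies dUMP, Shmt1 (0.18), Guk1 (0.15), Paics (0.14), Ppat (0.16) and Gmps (0.13), with adjusted p from 0.356 to 0.441 by edgeR. Other genes of purine synthesis in the list were at 0.15 (Pfas), 0.10 (Impdh2), 0.02 (Atic), -0.02 (Gart), -0.05 (Adsl) and -0.10 (Adss). Each had an unadjusted p above 0.05 by edgeR. Over the whole list, 19 of the 30 genes were above 0 and 11 below, with a median of 0.03. The genes past the first 3 of this list by p, Shmt1, Guk1, Paics, Ppat, Gmps, Pfas, Impdh2, Adss, Adsl, Gart and Atic, were named after their values were seen.

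Regulators of G1 and S phase, the fork checkpoint and mitosis also held no call. Of 29 G1/S regulators 1 had an unadjusted p under 0.05, Cdkn2c, an inhibitor of CDK4 and CDK6, whose WT samples stood at 19.7 ± 2.52 and recent KO samples at 15.6 ± 1.602 CPM (SD, n = 5), with a log2 fold change of -0.34 and an adjusted p of 0.253 by edgeR. E2f6, a repressor of the E2F family, and Ccnd1, cyclin D1, had log2 fold changes of 0.21 and 0.41. Of 12 fork checkpoint genes 0 had an unadjusted p under 0.05, with Atr (0.19), Timeless (-0.11) and Wee1 (-0.07) the smallest by p. Of 22 mitosis genes 2 did (9.09%), Ccnb1 and Mad2l1, beside 10.2% of all genes tested. Ccnb1, cyclin B1, was at 212, 227, 217, 220.1 and 219 CPM in WT and at 242, 251, 241, 247 and 230.2 CPM in recent KO samples. Every recent KO sample lay above every WT sample, where 2.42% of all genes tested had groups that did not overlap. The log2 fold change of Ccnb1 was 0.15 (SE 0.05, adjusted p = 0.298, edgeR). Mad2l1, a spindle checkpoint gene, had 0.12 and Incenp, of the chromosomal passenger complex, -0.11.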

How the data were processed

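RNA-seq of 10 samples was used, grouped by the genotype in the sample labels (5 WT, 5 recent KO). The authors sorted the GMPs, had SMARTseq libraries made and sequenced by a company, and quantified transcripts with Salmon (1.5.1 in the submitters' processing notes) against GENCODE's M27 annotation (GRCm39). For each sample the deposited files hold estimated counts per transcript, not normalized and not always whole, and TPM, scaled by the authors' Salmon run to transcript length and a fixed total. The deposited table of the authors' own DESeq2 comparison (mean level, log2 fold changes, p-values) was not used.

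Both values were summed per gene through GENCODE M21 (GRCm38), which held 137161 of 140789 transcripts (97.4%). Transcripts without a match took 0.348% to 0.390% of reads, and gene totals were rounded. Per sample 3 estimated reads correspond to 0.153 to 0.215 CPM, covering counting error only. The main test was edgeR's quasi-likelihood test (edgeR 4.0.16, TMM, filterByExpr at a minimum count of 10, all 10 samples, no covariate), with Benjamini-Hochberg adjustment over all genes tested and a threshold of 0.05. CPM were scaled by TMM. Exact permutation tests were two-sided. Alternatives were other normalizations, filters, a length offset, DESeq2 1.42.0, limma 3.58.1 on log2(TPM + 1) or log2(TPM + 0.1), a replicate block, leaving out each replicate, pseudogene copies and leading transcripts. Coding-transcript TPM was an alternative added after seeing the data.

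The members and lists were chosen with earlier results of these data known. Values in every sample were given, by rule, for members called or with groups apart, in each role for the member highest in TPM and the one smallest in p, and for Rrm1, Rrm2, Tyms and Tk1, with up to 3 genes smallest in p named from each other list. WT samples were single mice and recent KO samples pools, so the spread of the groups is not of the same kind. GRCm39 coordinates and 7 promoter windows were not used here.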

Additional observations from a re-analysis of the deposited data

Results flagged for a closer look

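Among 70 groups of 5 samples examined for a sample far from the others, 3 stood out, where chance gives about 1 in 20. Cdc45 had recent KO replicate 2 highest, at 103 CPM with the other 4 recent KO samples at 80.5 to 84.0, a gap of 0.843 of the group's range. Pole had recent KO replicate 4 lowest, at 19.2 CPM with the others at 21.7 to 22.4, a gap of 0.787 of the range. Rnaseh2b had recent KO replicate 1 highest, at 98.5 CPM with the others at 86.5 to 89.6, a gap of 0.740 of the range.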

How the results depend on the processing

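The count of replication genes called was 0 under each of 23 alternatives, with the smallest adjusted p of a member from 0.228 (without recent KO replicate 2) to 0.713 (without recent KO replicate 3). Their median log2 fold change of 0.02 was 0.0911 with library size only, 0.0790 by limma on log2(TPM + 1) and 0.0800 on log2(TPM + 0.1), each with 33 genes above 0 and all-gene medians of 0.07, 0.05 and 0.05; leaving out 1 replicate gave -0.0097 to 0.04. Over all genes the count of 41 was 156 by DESeq2, 206 without the filter on low counts, and 24 or 25 by limma with a pseudocount of 0.1 or 1. Leaving out 1 replicate gave 25 to 91, with 91 without recent KO replicate 2, 25 without recent KO replicate 3 or 4 and 26 without WT replicate 3. With the replicate number as a block the all-gene count was 20, and 0 members were called (smallest adjusted p 0.507); same-numbered samples did not deviate together (correlations of -0.174 to 0.0365), so the numbers are not taken as pairs. The count of further pathway genes called, 0, became 1 (Impdh1) without recent KO replicate 2 and ranged from 0 to 1 when 1 replicate was left out. Mpc2 ranged from -1.60 to -1.31 when 1 replicate was left out and missed the threshold only without recent KO replicate 1 (-1.42, adjusted p = 0.05004 by edgeR). Of 671 values for the 32 named genes other than Mpc2, none of them called in the main test, 652 kept their direction and side of the threshold, 1 passed it (Impdh1) and 18 changed sign. Mcm6 became 0.0494 with library size only or by limma with a pseudocount of 1, 0.0498 with 0.1, 0.0486 with coding TPM and, when 1 replicate was left out, -0.0578 (recent KO replicate 2) to 0.0044 (WT replicate 1). Fen1 became 0.0033 by limma at either pseudocount or with coding TPM, and 0.10 with its leading transcript alone. Rpa1 became -0.0596 with the length offset and -0.12 with its leading transcript alone, and Rpa2 -0.0163 without recent KO replicate 2 (0.0736 without recent KO replicate 5). Wee1 became 0.0034 with library size only and 0.0052 or 0.0049 by limma, and Incenp 0.10 by limma at either pseudocount and 0.0391 with the length offset. The cause of these changes was not tested. Precision differed with depth, with a median standard error of 0.07 for the members beside 0.12 over all genes tested. The annotation used differs from the authors' and Cdc6, Mcm7, Pcna, Rfc5, Rrm2 and Tyms have near-identical pseudogene copies, each at 0.417 CPM or less; adding their reads left 0 members called.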
